A study of Mus musculus with 80 samples.

Results

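The nuclear-encoded subunits of the mitochondrial respiratory chain and the ATP synthase were followed in whole hearts of sleeping and sleep-deprived mice. The members were taken as every gene symbol on the array that begins with Nduf, Uqcr, Atp5, Cox4, Cox5, Cox6, Cox7 or Cox8, together with the 4 succinate dehydrogenase genes Sdha, Sdhb, Sdhc and Sdhd. Probe sets that name several genes were left out, which removed Cox7c, Uqcrc2 and Ndufa13, and for a symbol with several probe sets the brightest was kept. The rule found 88 of the 18820 symbols that have a probe set of their own. They comprised 34 subunits and 7 assembly factors of complex I, 4 subunits of complex II, 7 of complex III, 17 of complex IV and 17 of the ATP synthase, with Ndufa4 and its relative Ndufa4l2 kept as a pair apart.

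All animals were male C57BL/6J mice of about 10 weeks that had been adapted to food in the dark phase only. A baseline group of 10 was killed at lights-on. Sleeping mice were left undisturbed and killed 3, 6, 9 or 12 h later (9 at each time, 36 in all), so that sleep is not separated from rest, and deprived mice, held awake over the same hours by gentle handling, were killed at the same times (8, 9, 9 and 8, 34 in all). Each heart was hybridised to 1 Affymetrix Mouse Gene 1.0 ST array with no pooling, and levels are RMA values on a log2 scale, on which 1 unit is a doubling. The number of arrays per group, not a read depth, limits the precision.

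The respiratory chain passes electrons from NADH (complex I) and from succinate (complex II) through coenzyme Q, complex III and cytochrome c to oxygen at complex IV. The proton gradient that complexes I, III and IV build drives the ATP synthase, complex V. The beating heart covers nearly all of its ATP demand this way, and its muscle cells are unusually rich in mitochondria. Several complex IV subunits exist as a heart and muscle isoform and a form made more widely, and a few more subunits have forms known from testis.

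Few of these genes separated hearts by state. No member differed between deprived and sleeping hearts over all times at a false discovery rate of 1%, and only Sdha and Ndufa5 did so at a single time, 12 h, where both were lower in deprived hearts. Over undisturbed sleep 24 members fell and 2 rose, beside 9.32% lower and 8.23% higher of all probe sets. Over deprivation 7 fell (7.95%) and 0 rose, beside 6.09% and 4.07%, a share near that of all probe sets. The assembly factor Ndufaf4 fell in both states and already within the first 6 h. Slopes over 0 to 12 h span the step from 6 to 9 h. This was also a step between the runs into which the sample numbers were divided here, so time and run cannot be told apart there.

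There were 5 arrays that stood apart, with the lowest mean correlations to the other arrays, and 1 of them, a deprived 12 h heart, carried the lowest Sdha and Ndufa5 levels of its group. The sample titles carry running numbers without a gap. They were divided here into 4 consecutive runs. The borders lie where the deprived 9 h hearts return, where the baseline hearts begin and where the deprived 3 h hearts return. No gap or label marks these borders. Runs 1 and 2 hold every 9 h and 12 h heart of both states. Run 3 holds the baseline and part of the 3 h and 6 h hearts, and run 4 the rest of these. The baseline hearts in run 3 come partly before its deprived and partly before its sleeping hearts, and no border was drawn between them. Whether the runs stand for batches is not given in the sources used here. Ventricular muscle markers (Myl2, Tnnt2, Actc1 and 5 more) had a group mean between 12.73 and 12.79 in every group. Of these 8 markers 2 fell and 0 rose over sleep, and 0 fell and 1 rose over deprivation. Of all probe sets 9.32% fell and 8.23% rose over sleep, and 6.09% fell and 4.07% rose over deprivation. Markers of brown and white fat varied more: the mean of 6 genes was 6.41 at baseline, from 6.39 to 7.76 in sleeping groups and from 6.59 to 7.70 in deprived groups. Of the 6, 4 rose and 0 fell over sleep, and 0 passed over deprivation. Endothelial markers (6 genes) averaged 9.792 at baseline, 9.503 in sleeping and 9.65 in deprived hearts of 12 h. Of these 3 fell and 0 rose over sleep, and 1 fell and 1 rose over deprivation. Smooth muscle and pericyte markers (5 genes) averaged 8.95 at baseline and 9.31 in deprived hearts of 9 h. Of these 1 fell and 1 rose over sleep, and 0 fell and 3 rose over deprivation. The part of these cell types in the members' slopes was not tested. Skeletal muscle markers were high in 1 baseline heart (mean of 7 genes 8.56) and 1 deprived 6 h heart (7.09), against medians between 5.15 and 5.30 in the 9 groups. In whole tissue, fewer cells of a type and less RNA per cell cannot be told apart.

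Promoters are shown for 4 of the members whose levels moved, because transcription of many chain genes is known to run through shared factors: the nuclear respiratory factor NRF1, the ETS family factor GABP, the estrogen-related receptors and YY1. Windows of 250 bases before to 50 after a transcript start were taken from RefSeq (GRCm38.p6) and read on both strands. Capitals mark matches to the NRF1 letters GCGCANGCG in Sdha, Ndufa5 and Ndufaf4, and to the clock E-box CACGTG in Ndufa7. Ndufa5 and Ndufa7 have a pair of windows each in the table, for different transcript starts, and the one that holds a match is given, which for Ndufa5 is not that of the outermost start.
Sdha, chr13:74350191-74350490, minus strand: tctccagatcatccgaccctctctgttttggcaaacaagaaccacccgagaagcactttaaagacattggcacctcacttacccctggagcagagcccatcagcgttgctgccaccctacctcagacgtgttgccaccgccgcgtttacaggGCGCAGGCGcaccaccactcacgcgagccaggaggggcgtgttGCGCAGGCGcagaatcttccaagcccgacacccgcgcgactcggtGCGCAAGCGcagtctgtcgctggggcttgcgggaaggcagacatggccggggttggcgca
Ndufa5, chr6:24527477-24527776, minus strand: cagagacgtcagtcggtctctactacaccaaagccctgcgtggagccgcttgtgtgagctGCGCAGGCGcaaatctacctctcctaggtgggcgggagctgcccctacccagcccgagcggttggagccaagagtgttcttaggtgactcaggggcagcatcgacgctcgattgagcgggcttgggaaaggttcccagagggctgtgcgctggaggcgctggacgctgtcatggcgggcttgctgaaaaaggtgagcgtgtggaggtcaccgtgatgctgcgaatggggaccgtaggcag
Ndufaf4, chr4:24897833-24898132, plus strand: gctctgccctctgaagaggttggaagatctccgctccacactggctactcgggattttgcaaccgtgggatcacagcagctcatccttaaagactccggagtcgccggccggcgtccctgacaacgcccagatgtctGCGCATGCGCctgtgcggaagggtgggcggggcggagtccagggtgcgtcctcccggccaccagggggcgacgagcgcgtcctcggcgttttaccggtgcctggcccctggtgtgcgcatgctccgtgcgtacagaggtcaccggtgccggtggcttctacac
Ndufa7, chr17:33824322-33824621, plus strand: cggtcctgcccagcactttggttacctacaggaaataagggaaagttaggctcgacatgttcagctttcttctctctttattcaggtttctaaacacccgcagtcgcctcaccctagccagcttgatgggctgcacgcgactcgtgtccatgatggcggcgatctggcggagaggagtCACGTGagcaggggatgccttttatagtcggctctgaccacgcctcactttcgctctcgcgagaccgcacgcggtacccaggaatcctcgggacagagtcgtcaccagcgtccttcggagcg
The Sdha window carried 3 NRF1 matches, and that of Ndufaf4 a palindromic pair that overlaps. Windows were found for 73 of the 88 members. NRF1 letters were in those of 22 members (30.1%) against 7.03% of the 27025 genes in the table, and the ETS letters CCGGAAG in 18 (24.7%) against 9.93%. YY1 letters (AAGATGGCG) were in 7 members (9.59%) against 1.64%, and those of the estrogen-related receptors (TCAAGGTCA) in 2, Atp5g3 and Sdhd (2.74%), against 0.466%. The E-box was in 6 members (8.22%), close to its share among all genes (8.09%). A match describes the letters of the window and not a bound site.

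As a check of the tissue, the members were among the brightest probe sets of the array. Signals of different probe sets depend on their probes as well as on the transcript, so the following places are those of signals and not amounts of RNA. The mean level of Cox6c, a small complex IV subunit, was 13.23, that of Atp5b, the catalytic beta subunit of the ATP synthase, 13.19, and that of Ndufs7, an iron-sulphur subunit in the electron path of complex I, 12.95. All 3 lay at or above the 99.8th percentile of signal. Sdha, the flavoprotein of complex II, averaged 12.57 and Uqcrc1, a core subunit of complex III, 12.50. The members with the lowest signal in their complex were Ndufb10 (8.35), Sdhc (11.54), Uqcr10 (9.95), Atp5k (7.45), the assembly factor Ndufaf5 (6.27) and Cox7b2 (2.55). Cox7b2, Cox8c (4.39) and Cox6b2 (4.91) sat at places of 3.4%, 36.8% and 44.7%, and forms of these subunits are known from testis.

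Among the isoform groups of complex IV, the heart and muscle forms Cox6a2, Cox7a1 and Cox8b averaged 12.17, 12.49 and 12.03. Their more widely made partners Cox6a1, Cox7a2 and Cox8a averaged 8.67, 11.27 and 11.24, and the further relative Cox7a2l, known for a role in joining complexes III and IV, 8.25. Cox4i1 averaged 11.78, and Cox4i2, its hypoxia-linked isoform, 7.20. Cox6b1 averaged 11.81. The 3 genes for the identical c-ring subunit of the ATP synthase, Atp5g1, Atp5g2 and Atp5g3, averaged 12.96, 11.84 and 12.51. Ndufa4, now counted with complex IV, averaged 11.96 and Ndufa4l2, a relative induced by hypoxia, 6.78. Spread between hearts of a group was small, with a within-group SD from 0.035 in Atp5d to 0.374 in Atp5k.

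The question of whether behavioural state sets the level of these genes was put by comparing all 34 deprived with all 36 sleeping hearts. None of the 88 members passed 1% (limma, Benjamini-Hochberg over all probe sets), while 8.38% of all 35556 probe sets did. At an unadjusted p under 0.05 there were 5 members higher and 12 lower in deprived hearts. With the time of day as a factor the count was again 0, against 10.4% of all probe sets. The median difference over the members was -0.014, against -0.0064 over all probe sets, and with each array centred on its median it was 0.0095, so the direction of this median depends on the scaling. The extremes were Ndufa5, a complex I subunit of the arm that faces the matrix, at -0.083 ± 0.025 (SE, adjusted p = 0.017), and Ndufa7, another subunit of that arm, at 0.14 ± 0.056 (adjusted p = 0.079). Leaving out the 3 h or the 6 h animals called 1 member each time, Ndufa5 (-0.10 and -0.11), and centring the arrays called 1, Ndufs7 (0.056).

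At the single times the counts of members called were 0 at 3 h, 0 at 6 h and 0 at 9 h, beside 1.59%, 2.58% and 3.31% of all probe sets. The members at an unadjusted p under 0.05 numbered 2, 4 and 23 at those times, and with each array centred Cox8a passed at 9 h (0.17, adjusted p = 0.0077). At 12 h 2 of 88 members (2.27%) were called, both lower in deprived hearts, beside 3.13% of all probe sets, and 38 had an unadjusted p under 0.05. Of all probe sets 1.69% were called lower in deprived hearts at 12 h, so the share of called members lay near that of all probe sets. The test of whether the difference between states changed with time passed for 0 of 88 members, with 18 at an unadjusted p under 0.05, and for 0.371% of all probe sets.

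**Figure D1:**
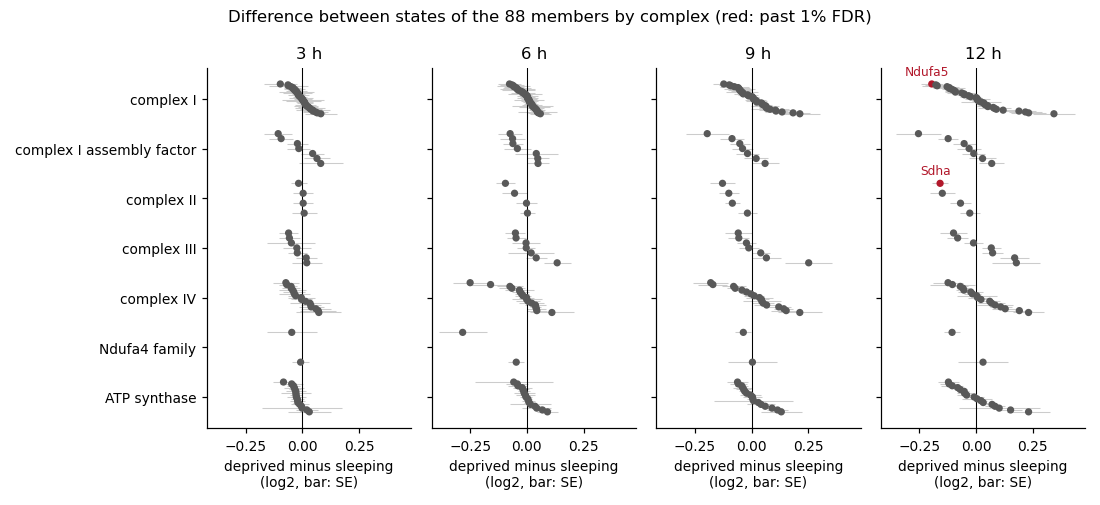
Difference between deprived and sleeping hearts (log2, horizontal axis, bars are SE) of the 88 members at 3, 6, 9 and 12 h, 1 point per member, grouped by complex on the vertical axis. Red marks the members past 1%, Sdha and Ndufa5 at 12 h, both below 0, while other members of complex I at 12 h lie on both sides of 0.

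Sdha holds the FAD cofactor that takes electrons from succinate, and so belongs to the citrate cycle and to the chain alike. In sleeping hearts at 12 h its lowest, median and highest levels were 12.56, 12.65 and 12.74 (n = 9). In deprived hearts at 12 h they were 12.25, 12.52 and 12.61 (n = 8). The groups overlapped, with the lowest sleeping heart below the 3 highest deprived ones, and the baseline hearts lay between 12.49 and 12.63. The difference at 12 h was -0.16 ± 0.035 (SE, limma, adjusted p = 0.0017). It was -0.084 ± 0.034 at 9 h (adjusted p = 0.12), and -0.016 ± 0.035 and 0.0024 ± 0.034 at 3 h and 6 h. Fat cell markers averaged 7.76 in the sleeping and 6.84 in the deprived hearts at 12 h, and with their mean as a covariate, chosen after the data were seen, the Sdha difference was -0.15 (adjusted p = 0.0049).

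Ndufa5 was lower in the same comparison. Its lowest, median and highest levels were 9.60, 9.64 and 9.80 in sleeping hearts at 12 h, and 9.23, 9.51 and 9.71 in deprived hearts. The groups overlapped here too, and 7 of the 8 deprived hearts lay below the sleeping median. The difference was -0.20 ± 0.047 (SE, limma, adjusted p = 0.0044). Both calls rested on 1 heart: without the deprived 12 h animal that stands apart, Sdha differed by -0.12 (adjusted p = 0.017) and Ndufa5 by -0.16 (adjusted p = 0.034), and neither passed 1%. Fitted on the 17 hearts of 12 h alone, they had adjusted p of 0.077 and 0.066.

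The other complex II genes showed no call between deprived and sleeping hearts at any time. Sdhd, 1 of the pair of membrane anchors, differed by -0.15 ± 0.055 at 12 h (adjusted p = 0.082) and Sdhc, the other, by -0.028 ± 0.044. Sdhb, the iron-sulphur subunit, differed by -0.069 ± 0.046. All 4 estimates at 12 h were below 0, with a median of -0.11, beside 18 of 34 complex I subunits and 10 of 17 complex IV subunits above 0. Ndufa7 gave the largest difference of all members at 12 h in the other direction, 0.34 ± 0.093 (adjusted p = 0.012), and passed 1% with each array centred (0.38, adjusted p = 0.0078) or with the runs as a model term (0.36, adjusted p = 0.0014). Centring took Ndufa5 off the list (-0.16, adjusted p = 0.027). The run term called 6 members at 12 h: Ndufa7, Cox7a1 (0.20) and Cox8b (0.24) higher, and Sdha (-0.16), Ndufa5 (-0.19) and Ndufb6 (-0.18) lower in deprived hearts. The centred fit and the run-term fit kept the deprived 12 h heart that stands apart, the highest of its group in Ndufa7. Without that heart, and with no centring or run term, 0 members were called at 12 h. The run term was not fitted without it.

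**Figure D2:**
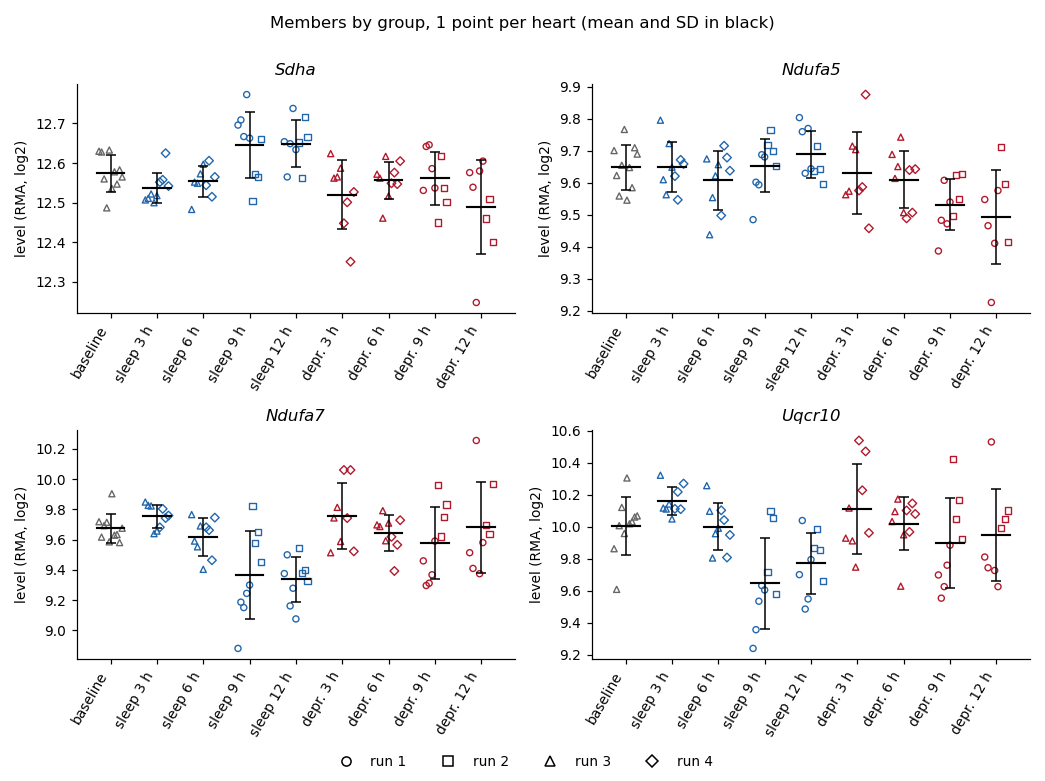
Levels (RMA, log2) of Sdha, Ndufa5, Ndufa7 and Uqcr10 in each of the 80 hearts, by group on the horizontal axis (sleep, undisturbed; depr., deprived), with the mean and SD in black and the run of the sample number given by the symbol. Ndufa7 and Uqcr10 are low in sleeping hearts of 9 h and 12 h, and 1 deprived 12 h heart is lowest in Sdha and Ndufa5 and highest in both other genes.

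Change over undisturbed sleep was followed as a slope over 0 to 12 h, fitted to the 10 baseline and 36 sleeping hearts. Of the 88 members 24 fell (27.3%), beside 9.32% of all probe sets, and 2 rose (2.27%), beside 8.23%. The 24 were spread over the chain: 10 complex I subunits, 2 assembly factors, Ndufa4l2, 3 complex III subunits, 4 complex IV subunits and 4 of the ATP synthase. The median slope was -0.0062 per hour, against 0.0013 over all probe sets. Of the 24, 6 have further probe sets, which may lie on near-identical copies, and 6 of those 7 further probe sets also passed 1%.

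Ndufa7 fell most steeply, by 0.035 ± 0.0060 per hour (SE, limma, adjusted p = 1.1e-05). Its lowest, median and highest levels were 9.58, 9.65 and 9.90 at baseline, 9.64, 9.76 and 9.85 at 3 h of sleep, and 9.40, 9.66 and 9.77 at 6 h. They were 8.88, 9.30 and 9.82 at 9 h and 9.08, 9.38 and 9.54 at 12 h. Every sleeping heart of 12 h lay below every baseline heart, while the first 6 h overlapped with baseline throughout. Deprived hearts of 9 h and 12 h had medians of 9.59 and 9.61.

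Ndufa4l2 fell by 0.034 ± 0.0083 per hour over sleep (adjusted p = 0.0012), from a mean of 6.95 ± 0.19 (SD) at baseline to 6.58 ± 0.21 at 12 h. Uqcr10, a small subunit of complex III, fell by 0.032 ± 0.0074 per hour (adjusted p = 0.00078), from 10.01 ± 0.18 to 9.77 ± 0.19, with its lowest mean, 9.65 ± 0.28, at 9 h. The heart isoforms of complex IV all passed: Cox8b fell by 0.021 per hour (adjusted p = 0.00053), Cox7a1 by 0.019 (adjusted p = 0.00049) and Cox6a2 by 0.016 (adjusted p = 0.0033). Their partners Cox8a (-0.0085 per hour), Cox7a2 (0.00059) and Cox6a1 (-0.0094) did not pass 1%. Whether slopes differ between partners was not tested. All 3 heart isoforms turned sign with a term for the runs (0.0039, 0.0023 and 0.0069 in that order) and over 0, 3 and 6 h alone (0.011, 0.0047 and 0.0066). With the fat marker covariate none of Cox8b, Cox7a1 and Cox6a2 passed (adjusted p = 0.017, 0.028 and 0.14), while Cox8a and Cox6a1 did. The 2 members that rose were Sdha, by 0.0083 ± 0.0023 per hour (adjusted p = 0.0059) and the dim Cox8c, by 0.015 ± 0.0044 (adjusted p = 0.0089). With each array centred on its median 0 members rose and 43 fell.

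Much of this change lay between 6 h and 9 h and so between runs. Over 0, 3 and 6 h alone, 12 of the 24 had slopes below 0 with a median of 5.4e-05 per hour, and 2 members passed 1%, Ndufaf4 and Ndufaf6. With the runs in the model 16 of the 24 stayed below 0, with a median of -0.0022, and 1 member, Ndufaf6, was called. Within run 1 the slopes of 5 of the 24 were below 0 and within run 2 those of 22, both runs holding 9 h and 12 h only. Within run 3 they were below 0 for 11 (median 0.0023) and within run 4 for 19 (median -0.016). Time and run cannot be told apart across that step. The 24 were picked for a fall in the sleeping hearts, which favours a higher level in deprived hearts of 9 h and 12 h in advance. They were higher there in 21 of 24 cases at 9 h (median 0.065) and 24 of 24 at 12 h (median 0.10), against 9 and 7 at 3 h and 6 h. Of all 88 members 45 were higher at 9 h and 43 at 12 h. These differences use the same sleeping hearts as the slopes and are not independent of them, so they cannot tell time from run. With the fat marker mean as a covariate, 5 members passed over sleep: Ndufa7, Ndufa12, Ndufaf4, Cox6a1 and Cox8a.

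Over deprivation, fitted to the same 10 baseline and the 34 deprived hearts, 7 members fell (7.95%), beside 6.09% of all probe sets, and 0 rose, beside 4.07%, with 25 falling and 0 rising at an unadjusted p under 0.05. The 7 were Ndufa4l2, Ndufaf4, Ndufaf5, Ndufb7, Ndufa5, Cox5a and Atp5g3. Ndufa4l2 fell by 0.031 ± 0.0072 per hour (SE, limma, adjusted p = 0.0013), from 6.95 to 6.61 ± 0.25 (SD) at 12 h. Ndufb7, a complex I subunit facing the intermembrane space, fell by 0.017 ± 0.0047 (adjusted p = 0.0079), from 10.33 ± 0.098 to 10.17 ± 0.13. Cox8b and Cox7a1 had slopes of 0.00024 and -0.00050 per hour here, and Ndufa7 -0.0056. As the time-dependent difference between states passed for no member, the larger count over sleep does not show that sleeping and deprived hearts differ in these slopes. With the runs in the model 0 members were called over deprivation, with 8 at an unadjusted p under 0.05, but all 7 slopes stayed below 0 (median -0.0096, against -0.014 as reported). Over 0, 3 and 6 h alone all 7 were also below 0 (median -0.018).

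**Figure D3:**
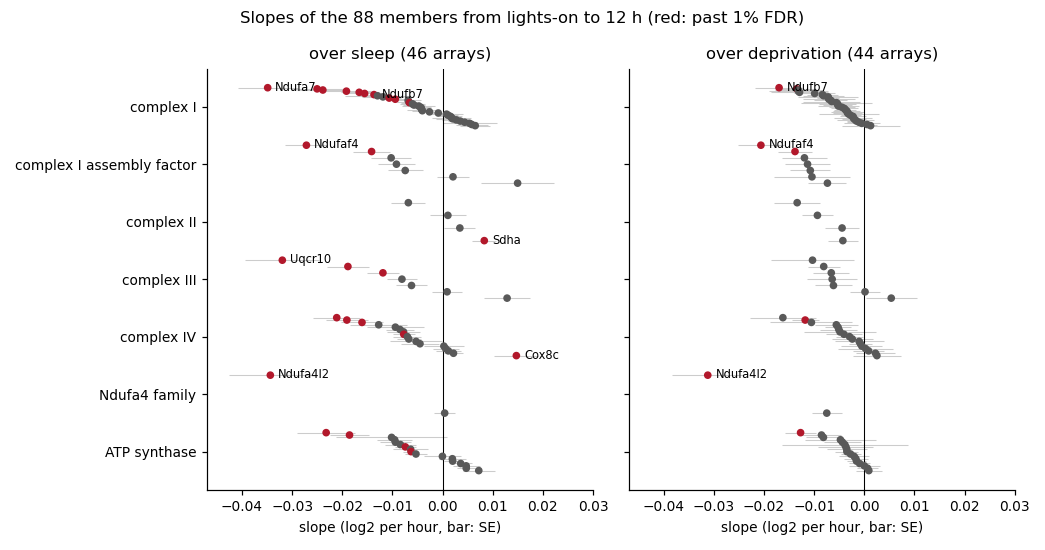
Slopes of the 88 members (log2 per hour, horizontal axis, bars are SE) over sleep (left, 46 hearts) and over deprivation (right, 44 hearts), by complex on the vertical axis; both fits hold the same 10 baseline hearts. Red points passed 1%: 24 below and 2 above 0 over sleep, and 7 below 0 over deprivation.

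Ndufaf4, a factor needed to assemble complex I, fell in both states. Baseline hearts lay at 9.04, 9.12 and 9.30 (lowest, median and highest), and sleeping hearts of 6 h at 8.82, 8.92 and 9.00, so that these groups did not overlap. Deprived hearts of 6 h lay at 8.75, 8.86 and 9.04, and those of 12 h at 8.72, 8.82 and 9.04. Sleeping hearts of 12 h lay at 8.60, 8.81 and 8.96, all below baseline, while the deprived groups of 6 h and 12 h reached the lowest baseline heart. The slope of Ndufaf4 was -0.027 ± 0.0042 per hour over sleep (limma, adjusted p = 1.4e-06) and -0.021 ± 0.0046 over deprivation (adjusted p = 0.00078). Over 0, 3 and 6 h alone it was -0.035 (adjusted p = 0.0036) and -0.043 (adjusted p = 0.0083). With the baseline hearts left out it was -0.023 over sleep (adjusted p = 0.0067), but -0.0063 over deprivation (adjusted p = 0.68), so that the fall over deprivation rested on the step from baseline. Within run 3 it was -0.036 (adjusted p = 0.042) over sleep and -0.039 (adjusted p = 0.0083) over deprivation, and with a term for the runs -0.029 (adjusted p = 0.076) and -0.031 (adjusted p = 0.027). Its difference between states passed at no time, with adjusted p between 0.38 and 0.85.

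Set against baseline group by group, the members called were all lower. In sleeping hearts they numbered 0 at 3 h, 0 at 6 h, 6 at 9 h (6.82%) and 5 at 12 h (5.68%). Of all probe sets 0.0562%, 0.726%, 4.96% and 6.51% were called lower there, and 0.16%, 1.54%, 8.43% and 11.8% in either direction. In deprived hearts the members called numbered 0 at 3 h, 1 at 6 h (1.14%), 3 at 9 h (3.41%) and 4 at 12 h (4.55%). Of all probe sets 0.81%, 2.68%, 3.96% and 5.9% were called lower in these groups, and 1.54%, 4.44%, 6.61% and 9.75% in either direction. Members with an unadjusted p under 0.05 numbered 7 and 10 at 3 h and 6 h of sleep and 7 at 3 h of deprivation. Ndufaf4 was among those called in 5 of the 8 comparisons, by -0.25 at 6 h of deprivation (adjusted p = 0.0015) and -0.32 at 12 h of sleep (adjusted p = 1.5e-05). Cox5a, a subunit of complex IV named here after its values were seen, was lower after 9 h (-0.12) and 12 h (-0.14) of deprivation, and Sdhd by -0.21 after 12 h (adjusted p = 0.0026). All 8 comparisons share the baseline hearts. Across all 9 groups 30 of the 88 members (34.1%) changed, beside 25.8% of all probe sets.

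The isoforms of complex IV were also followed from heart to heart. Within groups, the level of Cox6a1 followed the mean of the fat markers over the 80 hearts (r = 0.595, rho = 0.62, permutation p = 1e-05, adjusted p = 0.00088 over 88 members), the smallest p that 100000 permutations can give. Without the 2 hearts farthest from the median of the fat markers r was 0.586, and within the 4 runs it lay between 0.61 and 0.753. Cox8a followed it too (r = 0.492, rho = 0.461, adjusted p = 0.0018 and 0.0031), with r of 0.472 without 2 hearts and from 0.477 to 0.644 within runs. Cox6a2 ran the other way (r = -0.349, adjusted p = 0.04, rho = -0.36, adjusted p = 0.045). The other isoforms did not pass: r was -0.167 for the widely made Cox7a2 (adjusted p = 0.34), -0.134 for Cox7a1 (adjusted p = 0.44) and -0.144 for Cox8b (adjusted p = 0.40). In all 9 of 88 members passed 5% on r, 2 of them with r above 0, and the median r was -0.147. On rho only Cox6a1, Cox8a and Cox6a2 passed 5%. The others that passed on r, Atp5e, Atp5g3, Ndufa4l2, Ndufb10, Ndufb5 and Ndufc1, had adjusted permutation p from 0.063 to 0.087 on rho. The level of Cox6a1 in deprived hearts of 9 h, where the fat markers averaged 7.70, ran from 8.34 to 9.55, and in sleeping hearts of 3 h from 8.57 to 8.77. Whether cells of fat contribute this Cox6a1 RNA was not tested.

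**Figure D4:**
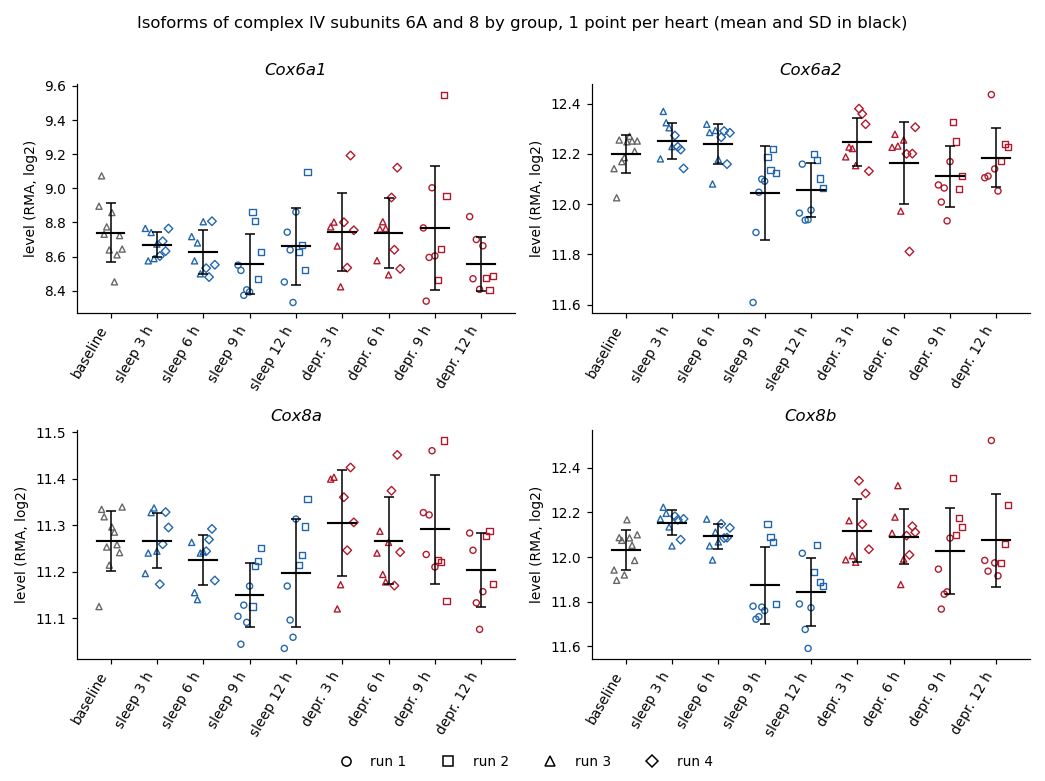
Levels (RMA, log2) of the widely made isoforms Cox6a1 and Cox8a (left) and the heart isoforms Cox6a2 and Cox8b (right) in each of 80 hearts, by group, with the mean and SD in black and the run given by the symbol. Cox8b and Cox6a2 have their lowest group means in sleeping hearts of 9 h and 12 h, and Cox6a1 reaches its highest value, 9.55, in a deprived 9 h heart.

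A larger pattern joined members across the complexes. After removing group means, the first principal component of the 88 members took 27.2% of their variance, and the second 12.9%. At one end stood Cox8b, Ndufb8, Uqcr10, Ndufa11, Cox7a1, Ndufa7 and Atp5g2, and at the other Ndufaf1, Sdha, Atp5pb and Ndufb3. Over the 80 hearts Cox8b correlated with Ndufb8 at r = 0.901 (rho = 0.894) and with Sdha at r = -0.796 (rho = -0.709), and in the 4 runs taken alone r lay between 0.841 and 0.937 and between -0.866 and -0.691. Without the 2 hearts farthest out in Cox8b they were 0.88 and -0.744. These pairs were picked from 3828 for their size, so no p is given, and the median of all pairs was 0.109. The points share array, labelling and extraction.

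The members that moved over sleep lay along the same pattern. Of the 24 that fell, 22 had a loading of the same sign as Cox8b, beside 52 of all 88 members, and of the 2 that rose Sdha stood at the other end while Cox8c had a loading of the same sign as Cox8b. Scored in within-group SDs from the baseline mean, sleeping hearts averaged 0.499 at 3 h and 0.217 at 6 h, and -0.855 and -0.767 at 9 h and 12 h. Deprived hearts averaged 0.391, -0.011, -0.304 and 0.12. At 9 h the averages split by run: sleeping hearts averaged -1.452 in run 1 and -0.109 in run 2, and deprived hearts -0.78 and 0.292. At 12 h sleeping hearts averaged -1.017 and -0.454. The deprived 12 h heart that stands apart scored 2.288, the highest of all 80, beside a group median of -0.17. The part that this component plays in the Sdha difference at 12 h and in the slopes over sleep was not tested.

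**Figure D5:**
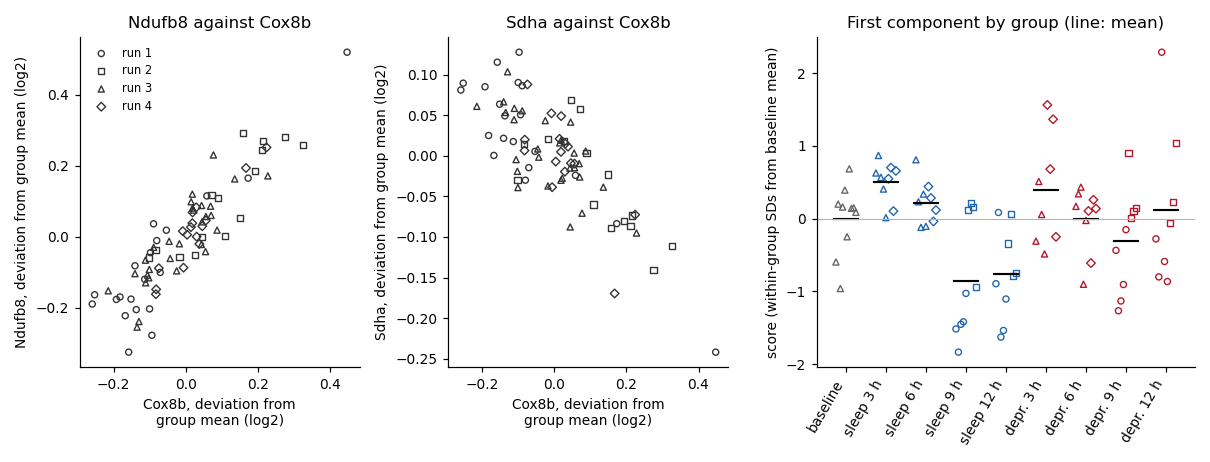
Left and middle: deviation of Ndufb8 and of Sdha from the group mean against that of Cox8b (log2), 1 point per heart, symbols by run. Right: score of each heart on the first component of the 88 members (within-group SDs from the baseline mean) by group, with lines at the means; sleeping hearts of 9 h and 12 h average -0.855 and -0.767, and 1 deprived 12 h heart scores 2.288.

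The other genes of the pathway were taken from 6 lists, to be read beside the 8.38% of all probe sets called for the pooled state effect. Of 16 measured genes of mitochondrial transcription and DNA upkeep, 2 were higher and 2 lower in deprived hearts over all times. Ppargc1b, a coactivator of mitochondrial genes related to PGC-1alpha, was lower by 0.27 ± 0.040 (SE, limma, adjusted p = 5.7e-07), and by 0.38 at 3 h and 0.37 at 6 h. Tfam, which packages and transcribes mitochondrial DNA, was lower by 0.11 ± 0.030 (adjusted p = 0.0073), while Twnk, the mitochondrial DNA helicase, was higher by 0.14 ± 0.034 (adjusted p = 0.0016) and Polg, the mitochondrial DNA polymerase, by 0.082 ± 0.023 (adjusted p = 0.0090). Of 9 genes of coenzyme Q synthesis 2 were lower: Coq8a by 0.15 ± 0.024 (adjusted p = 7.3e-07), a value that reached 0.24 at 12 h, and Coq7 by 0.11 ± 0.027 (adjusted p = 0.0021). Of 35 further assembly factors 1 was lower, Taco1, a translational activator of a complex IV subunit, by 0.12 ± 0.030 (adjusted p = 0.0015). None of 8 electron carriers and entry enzymes passed. Of 10 genes of ATP export and uncoupling 1 was lower, the ATP synthase inhibitor Atpif1, by 0.082 ± 0.023 (adjusted p = 0.0067). Of 16 genes of the citrate cycle and its entry 1 was higher, the pyruvate dehydrogenase kinase Pdk4, which differed by 0.84 ± 0.13 at 12 h (adjusted p = 1.0e-05). Median differences of the 6 lists lay between -0.029 and 0.031.

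Among the assembly factors outside the Nduf family, of 35, 10 fell and 0 rose over sleep (median slope -0.0069 per hour), and 11 fell and 0 rose over deprivation (median -0.011), beside 9.32% and 6.09% of all probe sets lower. These slopes also span the step between runs. Taco1 fell by 0.015 per hour over sleep (adjusted p = 0.00010) and by 0.031 over deprivation (adjusted p = 1.0e-08), and Cox10, which makes the heme of complex IV, by 0.021 (adjusted p = 2.0e-08) and 0.027 (adjusted p = 9.9e-07). Of the 16 genes of transcription and DNA upkeep 6 fell over sleep, among them Esrra, the estrogen-related receptor alpha, by 0.021 per hour (adjusted p = 1.1e-05). Over deprivation 4 fell and 1 rose. Ucp3, an inner membrane carrier of muscle, rose by 0.073 per hour over sleep (adjusted p = 4.3e-06) and 0.12 over deprivation (adjusted p = 6.8e-09). The subunits encoded in mitochondrial DNA were not analysed here.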

How the data were processed

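Hearts of 80 mice were measured on 1 array each. The deposited values are log2 levels that the authors made with RMA (R, oligo package), separately per tissue; versions are not given in the sources used here. The deposited table had lost its decimal points. They were restored after the second digit for values starting with 10 to 13 and otherwise after the first, which gave a range from 1.381 to 13.85, and 1 value was read by its probe set's other values. No count or genome alignment is involved.

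Of 35556 probe sets, 21218 name 1 gene, 1881 several (left out of naming) and 12457 none. Differences and slopes were fitted to all 35556 with limma 3.58.1 in R 4.3.3 (lmFit, eBayes), with Benjamini-Hochberg adjustment and a 1% threshold. The pooled state effect has no baseline and no time term, after the study's methods, and the slopes are linear regressions on hours. Single times, the interaction and the baseline contrasts come from 1 fit of 9 group means. Correlations with fat markers used 100000 permutations within groups, two-sided, with pandas 2.3.3 and scipy 1.17.1. The code was tested on simulated data.

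Values are given for members past the threshold for state (at most 12), the 3 steepest of each slope and direction, tissue isoforms, the Sdh genes and the highest and lowest of each complex; others were named after their values were seen. Members and lists were chosen with earlier results of these data known. Alternatives were centring, the 5 arrays apart left out, runs as a term, a filter at the 40th percentile of signal, 1 probe set per symbol, a common intercept, no baseline, early hours alone and leaving out each time; within-run slopes, the fat marker covariate and leaving out 1 deprived 12 h heart were added after seeing the data. That animals were separate makes the spread biological as well as technical.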

Additional observations from a re-analysis of the deposited data

Results flagged for a closer look

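Among 315 combinations of a named member and a group of 8 to 10 hearts, 17 held a heart far from the others by Dixon's criterion at 95%, and chance gives about 1 in 20. In baseline hearts these were the lowest Cox6a2 (12.03, next 12.14) and the lowest Uqcrc1 (12.43, next 12.53), both in replicate 2, and the highest Cox6c (13.39, next 13.27), Cox7a2 (11.44, next 11.30) and Ndufaf4 (9.30, next 9.18), all in replicate 1. The highest baseline Ndufa7 was 9.90 (next 9.72).

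In deprived hearts of 3 h, replicate 7 had the highest Cox4i1 (11.99, next 11.85) and the lowest Ndufs7 (12.84, next 12.95) and Sdhd (11.42, next 11.72). Another heart of that group had the highest Cox8c (4.64, next 4.41), and replicate 5 the lowest Ndufaf4 (8.50, next 8.83). In deprived hearts of 6 h the lowest Uqcr10 was 9.63 (next 9.95), in those of 9 h the lowest Cox4i1 was 11.59 (next 11.74), and in those of 12 h the lowest Ndufa4 was 11.52 (next 11.89), in the heart that also had the lowest Sdha and Ndufa5.

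In sleeping hearts of 3 h the highest Sdha was 12.62 (next 12.56) and the highest Ndufb7 10.46 (next 10.33), and in those of 9 h the lowest Ndufaf4 was 8.41 (next 8.74).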

How the results depend on the processing

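The pooled state effect called 0 members, and 1 with each array centred, without the 3 h animals or without the 6 h animals; at 9 h centring called 1 in place of 0. At 12 h the 2 calls became 6 with the runs as a term and 0 without the arrays that stand apart, with the 12 h arrays alone or without deprived 12 h replicate 3; centring kept the count at 2 but only Sdha of the 2 genes. Over sleep the 26 calls became 43 with centring, 1 with the runs, 2 over 0, 3 and 6 h, 5 with the fat marker covariate and 0 within each of the 4 runs. Over deprivation the 7 became 0 with the runs, 13 with a common intercept, 0 with the baseline left out, 1 over 0, 3 and 6 h and 4 with the covariate; within runs they became 0, 0, 1 and 0. The cause of these shifts was not tested; the within-run and early fits hold fewer arrays.

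Of the 14 members named by rule and called over sleep, 6 turned sign with the runs as a term. They were Atp5g2 (0.0037), Sdha (-0.0039), Uqcr10 (0.0072), Cox6a2 (0.0069), Cox7a1 (0.0023) and Cox8b (0.0039). Over 0, 3 and 6 h alone 8 of the 14 did: Atp5g1 (0.0014), Atp5g2 (0.0055), Ndufa4l2 (0.0056), Sdha (-0.0036), Uqcr10 (0.00034), Cox6a2 (0.0066), Cox7a1 (0.0047) and Cox8b (0.011). Further members that are not named also turned: of all 24 falling members, 16 and 12 stayed below 0 in these 2 settings. No paired analysis was possible because the labels give no numbers that pair animals, and replicate numbers were given in accession order.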
